A study of Mus musculus with 20 samples.

Results

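The 1-cell profile of preimplantation mouse development was taken from the 4 arrays whose titles name the 1-cell stage, out of 20 Affymetrix MOE430B arrays in all, and was set against the other 16. Those 16 hold 4 arrays each of oocytes, 2-cell embryos, 8-cell embryos and blastocysts, and each stage was given equal weight. All groups are mouse, the RNA of all of them was amplified in 2 rounds of in vitro transcription, and strain, genotype, treatment, culture and the number of embryos pooled per array are not given in the labels. The labels also do not say whether the oocytes were immature or ovulated, or at which hour after fertilization the 1-cell embryos were taken. Nothing says that the 4 arrays of a stage came from separate collections, and the p-values then reflect the spread of these samples alone, which may be technical. The values are linear intensities, 1 per probe set, on a scale set by the authors, and differences are given on the log2(intensity + 20) scale, which understates the change of dim probe sets. The RNA came from whole oocytes or embryos, so fewer cells of a type and less RNA per cell cannot be told apart, and because every array was scaled to 1 common mean a change in the total mRNA of the embryo cannot be seen.

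The 1-cell embryo, or zygote, is the fertilized egg before its first cleavage. It completes meiosis, forms a maternal and a paternal pronucleus, replicates its DNA and enters the first mitosis while living largely on messenger RNA and protein that the oocyte stored. Many stored messages are held with short poly(A) tails, are lengthened when they are recruited for translation, and are then removed as the embryonic genome takes over, with a minor wave of transcription in the zygote and the main wave in mice at the 2-cell stage.

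Of 22511 probe sets that are not controls, 15234 reached the median of the whole table, an intensity of 82.6, on at least 4 arrays and were tested. They stand for 7490 named genes, while 4578 of them carry no gene symbol and 178 carry several. The mean left after trimming 2% of the values at each end lay between 150.02 and 150.04 on all 20 arrays, whereas the median lay between 69.2 and 77.8 on the 1-cell arrays and between 67.8 and 93.3 on the others. Any pair of arrays differed at 99.7% or more of the probe sets, so none was a repeat of another. The table holds no detection calls, so a dim probe set cannot be told from one with no transcript, and precision is set by the number of arrays.

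The 1-cell arrays stood apart in the 18S ribosomal RNA controls. The probe set for the middle of 18S read 42928.5, 37605.5, 32272.0 and 35223.3 on the 1-cell arrays, and from 398.1 to 3808.2 with a median of 2086.2 on the other 16. The 5′ probe set read 19027.2 to 25765.2 against 553.4 to 7047.0, and the 3′ probe set 13428.2 to 15311.5 against 578.9 to 4522.0. No 1-cell array overlapped with any other array in these 3 controls, whose log2 differences were 4.35, 3.23 and 2.92 (exact two-sided permutation p = 0.000206 each, adjusted p = 0.000206, the smallest that all choices of 4 from 20 arrays can give). The log2 ratio of the 3′ to the 5′ control of beta-actin, a sign of how far amplification reached, was 1.86 ± 0.37 at the 1-cell stage, within the stage means of 1.09 to 2.41 elsewhere, and that of Gapdh was 2.17 ± 0.27 against 1.04 to 2.38 (SD, n = 4 each). The part of the 18S difference in the results below was not tested.

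**Figure D1:**
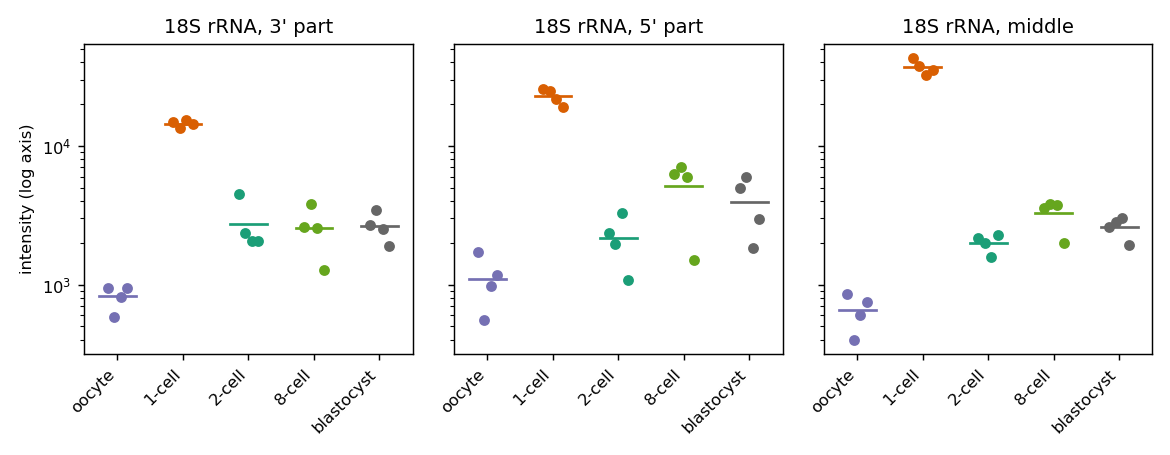
Intensity (log axis) of the 3 control probe sets for 18S ribosomal RNA on each of the 20 arrays, by stage, with a bar at the mean of 4 arrays. The 4 1-cell arrays lie above all 16 others in each panel, from 32272.0 to 42928.5 for the middle of the molecule.

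The markers of cell identity on this array were few, and those of the oocyte were bright at the 1-cell stage. Of 14 oocyte markers 5 are on the array, the secreted proteins Oosp3, Oosp2 and Bmp15, the maternal-effect factor Zar1 and Ooep of the subcortical maternal complex, and all 5 were higher at the 1-cell stage than the mean of the other stages. Their summed intensity ran from 74127.4 to 80518.6 on the 1-cell arrays, inside the oocyte range of 68609.7 to 89544.0 and above the 2-cell range of 14962.7 to 40644.4. With the 16 other arrays treated as 1 group, Oosp3, Ooep, Oosp2 and Bmp15 did not pass (limma, adjusted p from 0.101 to 0.119). Markers of cumulus and granulosa cells, which surround the ovulated egg, were represented by 6 of 17, and their sum ran from 1020.0 to 1370.2 at the 1-cell stage against 984.2 to 3378.6 elsewhere. The 6 differed in level on the 1-cell arrays, where Foxl2 averaged 755.8, Amhr2 167.0, Cyp11a1 161.1, Cd44 84.4, Inhba 43.3 and the cumulus matrix gene Ptx3 32.6. Amhr2 was the member called, lower, with a mean of 2052.8 at the 2-cell stage. Its call was lost with the 16 other arrays as 1 group (limma, adjusted p = 0.114). Sperm and spermatid markers, 6 of 16, summed to 567.7 to 787.9 at the 1-cell stage against 442.9 to 1134.6 elsewhere. Of these Zpbp and Spata18 were higher at the 1-cell stage, by log2 differences of 0.67 ± 0.24 and 1.02 ± 0.28 (SE, limma, adjusted p = 0.0355 and 0.006), and Odf2 was lower by a log2 difference of -1.67 ± 0.32 (adjusted p = 0.000186). Zpbp averaged 210.8 at the 1-cell stage, 152.8 in oocytes and 178.0 at the 2-cell stage, and Spata18 111.9 at the 1-cell stage and 98.7 in oocytes. Neither passed with the 16 other arrays treated as 1 group (limma, adjusted p = 0.151 and 0.0856). The Zpbp call was also lost without 1-cell replicate 1, 3 or 4 (adjusted p from 0.0732 to 0.116). The blood marker Ptprc lay between 2.9 and 76.8. The 2-cell marker Ubtfl1 averaged 30.9 and the blastocyst marker Gata6 58.3 at the 1-cell stage, against 27.1 and 78.5 in oocytes. No marker of the list is particular to zygotes. These sums and means therefore checked the label 1-cell against later stages, and not against the oocyte.

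The brightest probe sets of the 1-cell arrays were shared most with the oocyte arrays. Intensities of different probe sets depend on their probes as well as on the transcript, so their order is not an order of abundance. The 100 brightest probe sets averaged 5757.4 to 34275.1 on the 1-cell arrays, and 91 of them carry 1 gene symbol. Among the 100 brightest of the oocyte arrays 71 recurred, against 47 of the 2-cell, 12 of the 8-cell and 15 of the blastocyst arrays. The 1-cell top list shared 9 probe sets with the top list of every other stage, and 18 were in the top 100 of the 1-cell arrays alone. Their median intensity was 8854.5 at the 1-cell stage, against 7649.1 in oocytes, 3791.2 in 2-cell embryos, 589.9 in 8-cell embryos and 373.6 in blastocysts. These 100 were picked for their 1-cell signal, so the last figures describe them and test nothing.

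The 15 brightest named genes are given by what their products do. Oosp3, a secreted protein of oocytes, read 40014.2, 34732.3, 33060.5 and 29293.3 on the 1-cell arrays, and from 212.5 to 30949.1 with a median of 4604.8 on the others. Its 1-cell values overlapped with the oocytes, which averaged 26313.3 ± 3605.6 (SD, n = 4), and lay far above the 8-cell mean of 443.0 ± 37.8. Obox5, a homeobox gene of the Obox cluster, read 31711.6, 30875.9, 26105.7 and 20409.8 at the 1-cell stage, and from 197.9 to 17875.2 with a median of 2518.2 elsewhere. All 4 of its 1-cell arrays lay above the other 16, and its log2 difference from the mean of the other stages was 3.84 ± 0.23 (SE, limma, adjusted p = 2.07e-12). Its difference from the nearest stage, the oocyte, was 0.88, which did not pass the test against every stage (adjusted p = 0.24).

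Of the 15, 3 were F-box genes of the oocyte-expressed Fbxw cluster on chromosome 9, whose products recruit substrates to ubiquitin ligases. Fbxw24 averaged 24937.7 ± 5705.6 at the 1-cell stage, Fbxw22 23545.9 ± 1649.9 and Fbxw19 15302.5 ± 846.7 (SD, n = 4). The same genes averaged 21416.2, 17800.2 and 22329.3 in oocytes and 82.4, 967.0 and 160.6 in blastocysts. Their log2 differences from the mean of the other stages were 3.98, 3.03 and 3.43 (limma, adjusted p of 4.29e-13 or lower for Fbxw22 and Fbxw19 and of 1.1e-11 for Fbxw24). Members of this cluster, like those of the Nlrp4, Obox and Pramel families, have near-identical copies whose transcripts a probe set can share.

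Lsm14a, a translational repressor of RNA granules, read 21614.4, 22403.7, 16946.3 and 13862.6 on the 1-cell arrays, and from 1118.8 to 13078.1 with a median of 6220.1 on the others. All 4 lay above the other 16, with a log2 difference of 1.82 ± 0.18 (SE, limma, adjusted p = 1.04e-08). A second probe set of Lsm14a averaged 5221.3 ± 910.3 at the 1-cell stage, and it was higher there than at every other stage by 0.70 or more (adjusted p = 0.0392). Zar1, a maternal-effect protein that binds stored mRNA, read 15172.9, 17640.3, 13834.3 and 12093.3 at the 1-cell stage and 13193.7 ± 845.3 in oocytes, so the pair overlapped. It averaged 1189.5 ± 292.7 at the 2-cell stage and 308.5 ± 43.6 in blastocysts, and its log2 difference from the mean of the other stages was 3.54 ± 0.15 (SE, limma, adjusted p = 4.76e-15).

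Bub1b, the spindle checkpoint kinase BubR1, read 19926.2, 23179.1, 17157.9 and 11596.5 at the 1-cell stage, overlapping with the oocyte mean of 16915.9 ± 2178.5. It averaged 630.1 ± 234.0 at the 2-cell stage. Rgs2, which dampens signalling through Gq-coupled receptors, read 13973.4 to 15510.6 on the 1-cell arrays against 26.7 to 17367.6 elsewhere, and had the largest difference of the 15, 4.64 ± 0.22 (SE, limma, adjusted p = 3.48e-14). Cdca8, the Borealin subunit of the chromosomal passenger complex, was the exception. It averaged 16843.5 ± 3669.9 at the 1-cell stage and between 11351.5 and 17703.4 at the others, a log2 difference of 0.35 ± 0.17 (SE, limma, adjusted p = 0.13). It passed without 1-cell replicate 4 (log2 difference 0.49, adjusted p = 0.0414) and after centring each array on its median (0.52, adjusted p = 0.039).

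Gyg, glycogenin, which primes glycogen synthesis, averaged 17977.8 ± 1175.6 at the 1-cell stage and 17601.3 ± 2059.0 in oocytes. Accsl, a homolog of plant ACC synthase, averaged 16655.0 ± 2586.4 at the 1-cell stage and 10370.2 ± 1154.5 in oocytes, and all 4 of its 1-cell arrays lay above the other 16. Nlrp4f, of an oocyte family of NLR proteins, averaged 16605.5 ± 1769.2 at the 1-cell stage and 13332.7 ± 2224.1 at the 2-cell stage. Ooep averaged 15907.1 ± 2726.8 and Elobl, an elongin B-like gene, 14803.2 ± 3841.5 at the 1-cell stage, both below their oocyte means of 21624.0 ± 2466.3 and 20839.7 ± 4096.9 (SD, n = 4 throughout). Their log2 differences from the oocyte mean were -0.45 and -0.51, and neither passed the test against every stage in either direction. Of the 14 genes of the 15 that passed against the mean of the other stages, 11 lost that call with the 16 other arrays treated as 1 group (limma, adjusted p from 0.0501 to 0.159), Fbxw22, Bub1b and Zar1 being the exceptions.

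**Figure D2:**
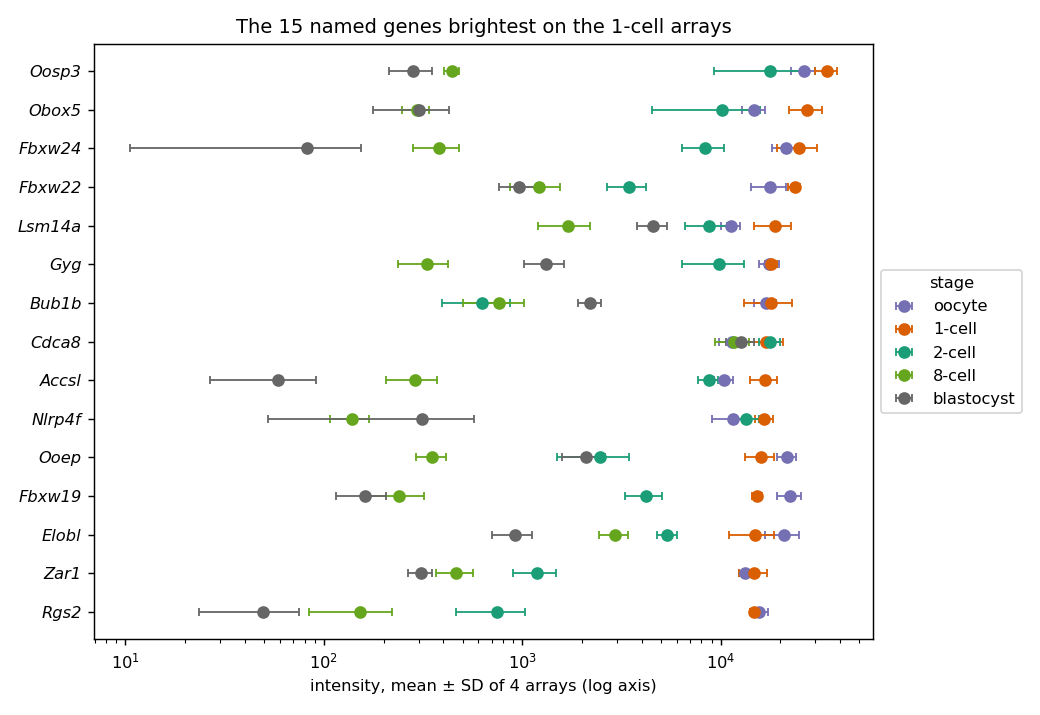
Mean intensity with SD of 4 arrays (log axis) at each of the 5 stages for the 15 named genes brightest on the 1-cell arrays. The 1-cell points (orange) differ from the oocyte points by at most 0.88 on the log2 scale, and 14 of the 15 genes passed the test against the mean of the other stages, Cdca8 being the exception. With the 16 other arrays as 1 group, 11 of the 14 did not pass.

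Against the mean of the other stages, the 1-cell stage had 2129 higher probe sets (14.0% of those tested) and 2942 lower ones (19.3%) at an adjusted p under 0.05 in limma, of which 1265 and 1655 by at least 2-fold. The split depended on scaling. Higher calls made up 42% of all calls as deposited, 56% (2705 higher and 2126 lower) with each array centred on its median and 47.7% (2264 and 2483) after quantile normalization. The median difference over all tested probe sets was -0.09 as deposited and 0.07 after median centring, a shift of 0.17, and single differences are best read against it. No probe set called lower became higher under either scaling. With the 16 other arrays treated as 1 group, so that their differences from each other enter the spread, 606 were higher and 727 lower. The test against every stage is stricter. In it the largest of the 4 one-sided p-values, each for 1-cell against 1 other stage, was adjusted over all tested probe sets.

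Higher at the 1-cell stage than at every other stage were 70 probe sets, 0.459% of those tested. They carried 60 named genes and had a median 1-cell intensity of 2080.7, against 127.0 for all tested probe sets. In 68 of the 70 the 4 1-cell arrays all lay above the other 16, which was so for 323 (2.12%) of all tested. The next highest stage was the oocyte for 51, the 2-cell stage for 15, and the 8-cell stage and the blastocyst for 2 each. The difference from that nearest stage ran from 0.61 to 2.3 with a median of 0.97, and 30 of the 70 exceeded 2-fold there. The count depended on single arrays. It was 19 without 1-cell replicate 2, 26 without 1-cell replicate 3 and 44 without 1-cell replicate 1, and it was 25, 35 and 35 without oocyte replicates 4, 1 and 2 and 43 without 2-cell replicate 4.

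The 12 named genes with the largest margins are given by role, and no list was tested for them. Their naming required all 4 1-cell arrays to lie above the other 16, so the lack of overlap was fixed by the choice. The probe sets of Mcu, Abhd17b and Ipcef1 reached the filter of 82.6 on at least 4 arrays only through their 1-cell arrays. The tests of these 3 are therefore not independent of the filter. Mcu, on chromosome 10, encodes the pore of the mitochondrial calcium uniporter. It read 148.1, 240.6, 250.7 and 282.2 on the 1-cell arrays, and from 5.5 to 91.3 with a median of 15.7 on the others, without overlap. The difference from its nearest stage was 2.03 (limma, adjusted p = 0.00411). Its other, brighter probe set averaged 2058.6 at the 1-cell stage against 1033.8 in oocytes and was higher than the mean of the other stages by 1.76, but did not pass against every stage. Mcur1, a regulator of the same uniporter, was also among the 70, at 2228.6 ± 435.5 at the 1-cell stage against stage means of 909.9 to 1291.7. It falls outside the naming rule and was chosen after its values were seen.

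Cox10, which makes the heme of cytochrome oxidase, read 1349.4, 2124.4, 1875.5 and 2125.8 at the 1-cell stage, and from 220.6 to 1106.1 with a median of 325.3 elsewhere. The groups did not overlap and the smallest difference was 1.40 (limma, adjusted p = 0.00384). A second Cox10 probe set, at 1308.5 on average on the 1-cell arrays and 1358.4 in oocytes, did not pass against the mean of the other stages (0.31, adjusted p = 0.073). Lyrm4, a partner of the cysteine desulfurase that builds iron-sulfur clusters, read 1641.3, 2281.8, 1843.7 and 1248.4 at the 1-cell stage, and from 269.5 to 678.5 with a median of 374.8 elsewhere. Each 1-cell value was above all others, and the smallest difference was 1.41 (adjusted p = 0.000203). Acoxl, related to the peroxisomal acyl-CoA oxidases, read 446.6 to 693.1 against 7.8 to 316.5, with a smallest difference of 1.34 (adjusted p = 0.0306).

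Nsrp1, a splicing regulator of nuclear speckles on chromosome 11, read 3184.6, 5047.2, 3738.6 and 3698.0 on the 1-cell arrays, and from 385.3 to 1506.2 with a median of 663.3 on the others. It had the smallest adjusted p of the 70, with a difference of 1.73 from the oocyte (limma, adjusted p = 4.24e-05). A second Nsrp1 probe set went the other way, at 283.2 at the 1-cell stage and 707.0 in oocytes, and was lower than the mean of the other stages by a log2 difference of -0.56 (adjusted p = 0.0109). Tbl1xr1, an exchange subunit of the NCoR corepressor, read 1060.8, 603.8, 705.6 and 669.4 at the 1-cell stage, and from 23.1 to 327.4 with a median of 78.2 elsewhere. No array overlapped and the smallest difference was 2.03 (adjusted p = 0.00105). Nr2e1, the orphan nuclear receptor Tlx known from neural stem cells, read 780.8 to 886.7 against 94.4 to 476.6, a smallest difference of 1.25 (adjusted p = 0.0112), and its call was lost without 1-cell replicate 2. Another Nr2e1 probe set averaged 131.1 at the 1-cell stage, below its oocyte mean of 301.6, and did not pass (adjusted p = 0.0839).

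Abhd17b, one of the enzymes that remove palmitate from membrane proteins, read 324.5, 140.7, 244.3 and 191.5 at the 1-cell stage, and from 11.8 to 69.8 with a median of 26.4 elsewhere. The smallest difference was 1.89 (limma, adjusted p = 0.00116), and no array of another stage reached the filter of 82.6. Its 3 other probe sets were all higher than the mean of the other stages, and none passed against every stage. Its paralog Abhd17a was among the genes lower than at every stage, as described below. Ipcef1, which binds the cytohesin exchange factors, read 191.9, 250.1, 238.1 and 190.2 at the 1-cell stage, and from 5.9 to 141.5 with a median of 10.6 elsewhere. Oocyte replicate 3, at 117.5, and 2-cell replicate 1, at 141.5, stood apart from their groups. Its smallest difference, 2.3, was the largest of all 70 (adjusted p = 0.0229), yet the call was lost when any of 9 of the 20 arrays was left out. The other Ipcef1 probe sets were both brighter and higher than the mean of the other stages, and neither passed against every stage. The brightest averaged 1311.8 ± 224.4 (SD) at the 1-cell stage, close to its oocyte mean of 1286.2 ± 247.4. The remaining one averaged 362.1 at the 1-cell stage and 240.2 in oocytes.

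Wdr37, a WD-repeat protein, read 719.8 to 1417.4 at the 1-cell stage against 121.0 to 510.3 elsewhere, with a smallest difference of 1.35 (limma, adjusted p = 0.00258). Of its 6 other probe sets 2 were higher and 1 lower than the mean of the other stages. Cdca2, which brings protein phosphatase 1 to anaphase chromosomes, read 2373.3 to 4343.4 against 423.0 to 1343.9, with a smallest difference of 1.28 (adjusted p = 0.000383). Both of its other probe sets were called lower, by log2 differences of -0.56 and -1.23. Trim61, a TRIM-family gene, read 2566.1 to 5050.8 against 22.8 to 1681.8, with a smallest difference of 1.30 (adjusted p = 0.022). The Acoxl and Trim61 calls were each lost when any of 6 arrays was left out. Over the 12 named genes the 19 other probe sets were higher 9 times, lower 4 times and not called 6 times, and none repeated the call against every stage.

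**Figure D3:**
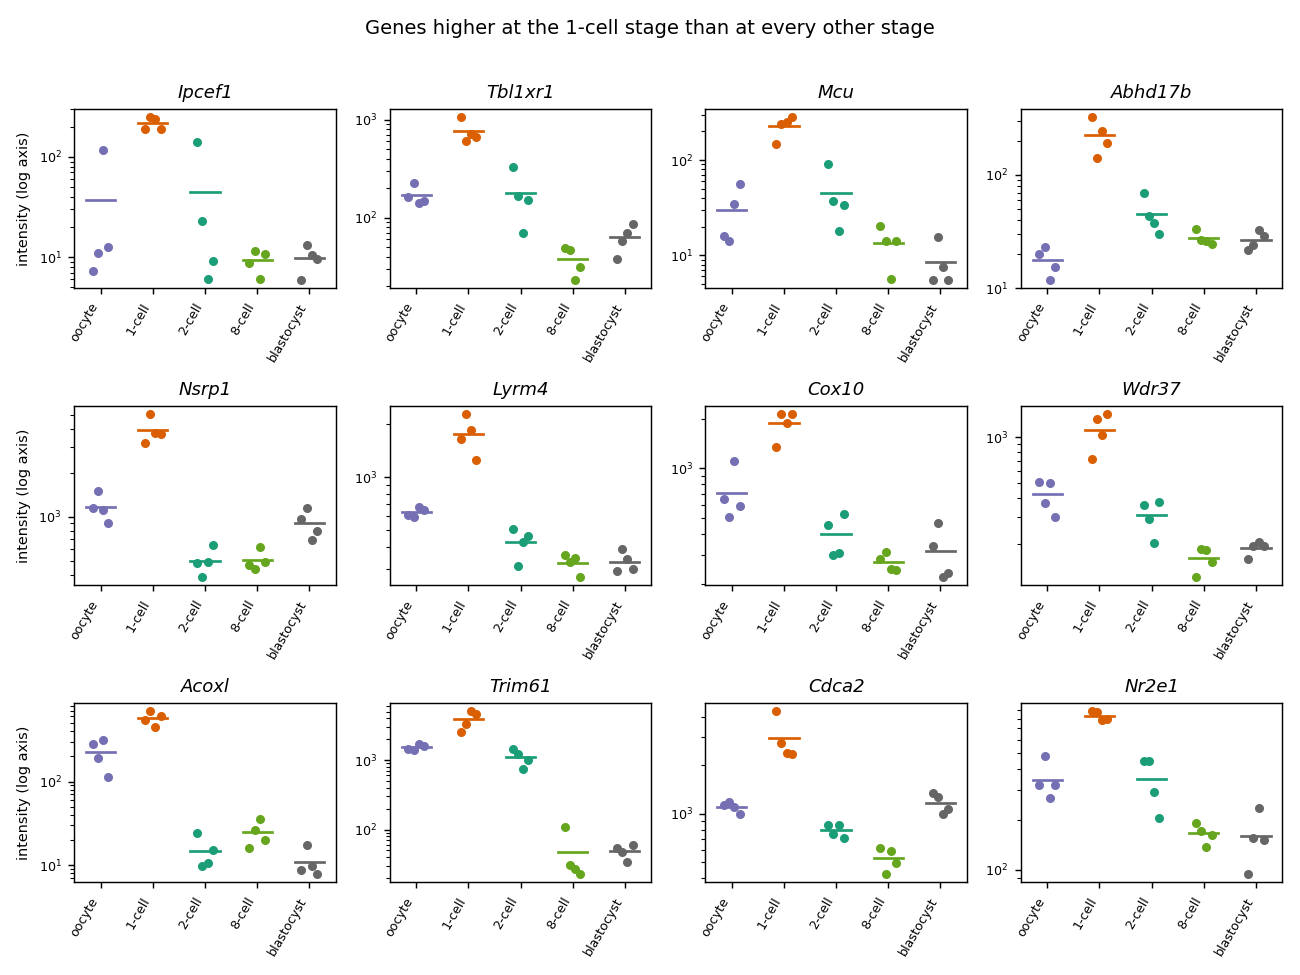
Intensity (log axis) on each of the 20 arrays, by stage, of the 12 named genes with the largest margins among those higher at the 1-cell stage than at every other stage, with a bar at the mean of 4 arrays. All 4 1-cell points lie above the other 16 in each panel, which the naming rule requires.

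Lower at the 1-cell stage than at every other stage were 139 probe sets, 0.912% of those tested, with 109 named genes. Their median 1-cell intensity was 115.5, and 63 of them averaged under 100 there. Background was not measured, and without detection calls such dim values cannot be told from no transcript. In 120 of the 139 the 4 1-cell arrays all lay below the other 16, which was so for 195 (1.28%) of all tested. The next lowest stage was the oocyte for 79, the 2-cell stage for 39, the blastocyst for 13 and the 8-cell stage for 8. The difference from it ran from -0.62 to -3.44 on the log2 scale, and 111 of the 139 exceeded 2-fold, against 30 of the 70 higher ones. All 12 genes named here kept their call in every alternative in which they were tested and without each of the 20 arrays in turn. Psmc3ip, Rpl22, Krr1 and Pum3 were read by s_at probe sets, so the alternative without x_at and s_at probe sets could not test them. Of the 12, 7 averaged under 100 on the 1-cell arrays, and the size of their differences, and so their place by margin, depends on the added 20. With 5 added the nearest difference of Dscc1 was -3.66 and that of Abhd17a -3.17, and with 80 added they were -2.14 and -1.53. Naming required all 4 1-cell arrays to lie below the other 16, so the lack of overlap in these 12 was fixed by the choice.

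Mrpl43, a protein of the large mitochondrial ribosomal subunit on chromosome 19, read 17.4, 37.7, 22.4 and 32.6 on the 1-cell arrays, and from 347.0 to 2214.6 with a median of 1046.2 on the others. The lowest other value was far above every 1-cell value, and the nearest stage, the oocyte, differed by a log2 difference of -3.05 (limma, adjusted p = 1.56e-10). Rpl22, of the large cytosolic subunit, read 815.3, 878.6, 1205.9 and 943.9 at the 1-cell stage, and from 4490.7 to 43504.9 with a median of 13974.6 elsewhere. It averaged 960.9 at the 1-cell stage, where the median of all tested probe sets was 127.0. Its nearest difference was -2.46 (limma, adjusted p = 5.12e-08). Krr1, of the processome that builds the small subunit, read 253.7 to 348.6 against 1491.6 to 4783.2, and its nearest difference was -2.32 (adjusted p = 1.56e-10). Pum3, a nucleolar Puf-family RNA-binding protein, read 468.0 to 988.4 against 2585.4 to 9045.6, with -2.29 (adjusted p = 2.77e-07). Zfas1, a long noncoding RNA that hosts small nucleolar RNAs, read 26.5 to 124.2 against 236.8 to 1992.6, with -2.03 (adjusted p = 4.02e-05).

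Pfdn6, a subunit of the prefoldin chaperone, read 176.5, 223.2, 261.0 and 282.0 at the 1-cell stage, and from 1630.5 to 5831.0 with a median of 2913.2 elsewhere. Its groups were far apart, with a nearest difference of -2.87 (limma, adjusted p = 1.56e-10). Psmb5, a catalytic subunit of the proteasome, read 249.4, 348.1, 282.5 and 394.3 at the 1-cell stage, and from 1191.2 to 11638.9 with a median of 3894.9 elsewhere. The 1-cell values were the lowest 4 of 20, and the nearest difference was -2.0 (adjusted p = 6.29e-08). Eif4h, which stimulates the helicase eIF4A in translation initiation, read 22.0 to 60.2 against 71.7 to 2348.2, with -2.13 (adjusted p = 0.00143). A second Eif4h probe set did not pass, at 217.8 at the 1-cell stage and 259.4 to 290.1 elsewhere (adjusted p = 0.258).

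Dscc1, of an alternative clamp loader used in sister chromatid cohesion, read 4.3, 70.5, 59.4 and 26.6 on the 1-cell arrays, and from 314.6 to 942.5 with a median of 618.2 on the others. The nearest stage, the blastocyst, differed by a log2 difference of -3.08 (limma, adjusted p = 2.07e-07). A second Dscc1 probe set, at 110.1 at the 1-cell stage and 103.8 to 141.4 elsewhere, did not pass (adjusted p = 0.75). Psmc3ip, the Hop2 partner of the meiotic recombinases, read 18.5 to 82.0 against 355.3 to 2112.4, with -2.65 (adjusted p = 2.77e-07). Abhd17a read 21.8, 24.4, 10.4 and 14.8 at the 1-cell stage, and from 115.9 to 1646.2 with a median of 554.0 elsewhere. No array overlapped, the nearest difference was -2.53 (adjusted p = 1.07e-06), and a second of its probe sets, at 160.3 at the 1-cell stage and 413.1 to 1135.2 elsewhere, was called lower than every stage as well, while another did not pass (adjusted p = 0.123). Rab11fip1, an effector of Rab11 in endosome recycling, read 45.3 to 139.2 against 351.0 to 2033.4, with -2.04 (adjusted p = 6.42e-06). A second Rab11fip1 probe set averaged 100.2 at the 1-cell stage, above its oocyte mean of 54.4. It did not pass against the mean of the other stages (log2 difference -0.39, limma, adjusted p = 0.383). Over the named lower genes the 6 other probe sets were lower 2 times and not called 4 times, and 1 repeated the call against every stage.

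**Figure D4:**
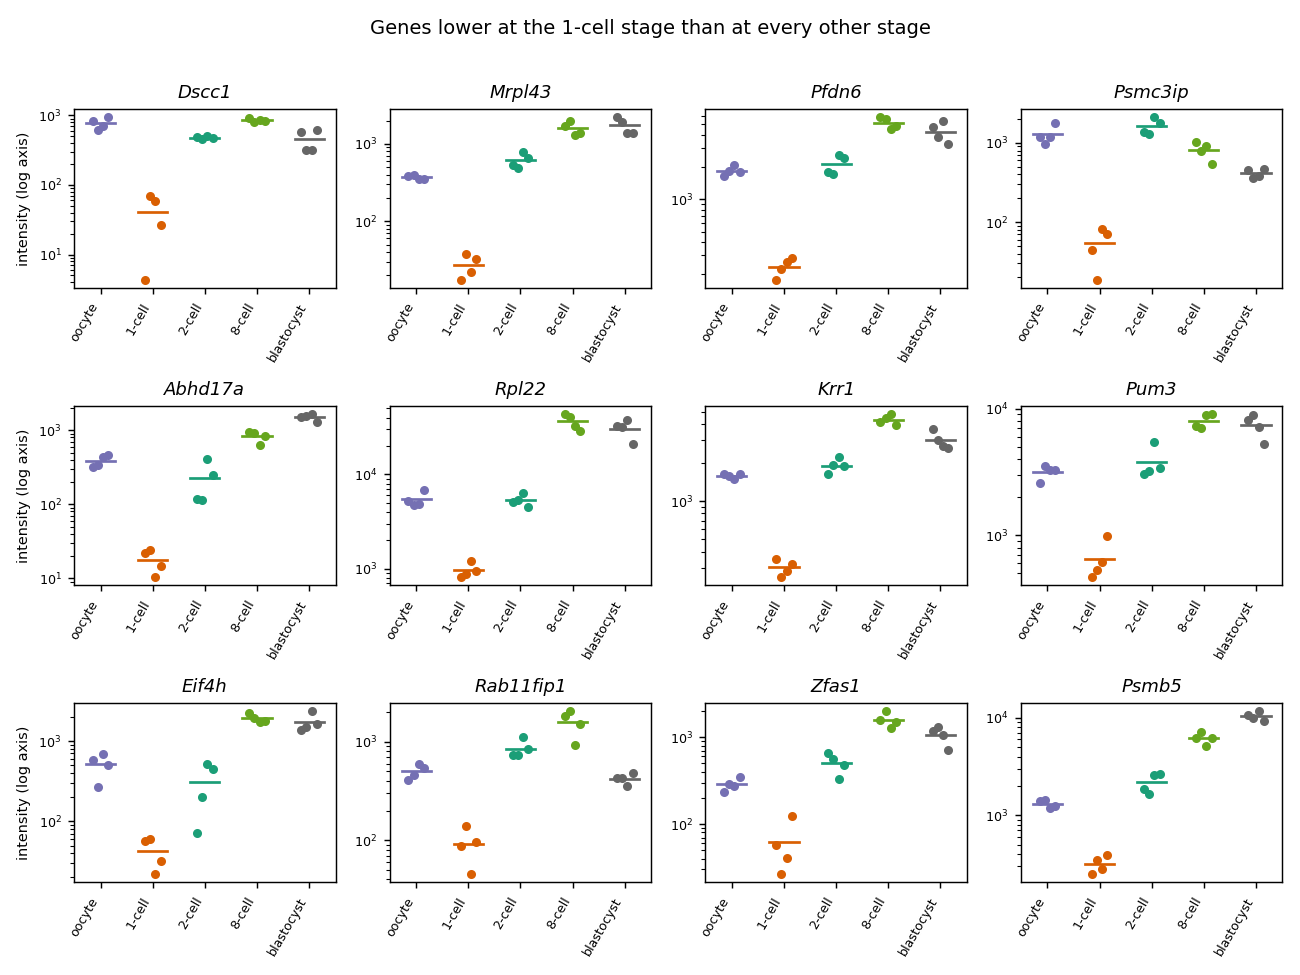
Intensity (log axis) on each of the 20 arrays, by stage, of the 12 named genes with the largest margins among those lower at the 1-cell stage than at every other stage, with a bar at the mean of 4 arrays. The 1-cell points form a dip between oocytes and 2-cell embryos in each panel, and all 4 lie below the other 16, which the naming rule requires.

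Promoter sequences were examined for what these genes share that the choice did not use. The sequences shown are those of Mrpl43 and Nsrp1, which have the smallest adjusted p in their direction (Mrpl43 together with Pfdn6 and Krr1). They come from RefSeq on GRCm38.p6, run from 250 bases before to 50 after the first listed start of each gene, and lie on the minus strand at chr19:45006393-45006692 for Mrpl43 and chr11:77078388-77078687 for Nsrp1. Capitals mark the motif CCGGAAGT, searched on both strands, which is known as the core of ETS-family binding sites.
Mrpl43: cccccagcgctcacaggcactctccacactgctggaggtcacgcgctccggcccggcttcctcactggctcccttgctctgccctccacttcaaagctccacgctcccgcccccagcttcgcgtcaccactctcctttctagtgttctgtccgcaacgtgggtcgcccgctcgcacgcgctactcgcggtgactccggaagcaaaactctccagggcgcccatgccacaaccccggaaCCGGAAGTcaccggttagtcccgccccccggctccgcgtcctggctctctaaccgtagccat
Nsrp1: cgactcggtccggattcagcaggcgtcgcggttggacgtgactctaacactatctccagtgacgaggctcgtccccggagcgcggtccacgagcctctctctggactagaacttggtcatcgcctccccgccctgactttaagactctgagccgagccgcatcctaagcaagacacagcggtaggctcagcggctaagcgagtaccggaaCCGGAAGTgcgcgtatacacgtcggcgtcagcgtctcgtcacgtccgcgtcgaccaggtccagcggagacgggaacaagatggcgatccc
Each promoter holds 1 match, beginning at position -12 from the start in Mrpl43 and -40 in Nsrp1. Of the 50 genes higher than at every stage with a promoter in the table, 7 (14%) hold the motif, as do 12 of 84 (14.3%) of those lower than at every stage. Among all tested genes with a promoter 379 of 5897 (6.43%) hold it, and among all 27025 promoters 4%. The letters TATAAA, on either strand, stand in 2% of the higher, 3.57% of the lower and 7.89% of all tested genes. The median number of CG dinucleotides was 21.5 in the higher and 23.5 in the lower genes, against 18 in all tested. These are counts of letters, without a test.

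The next genes have the largest differences from the mean of the other stages among those with 1 symbol, no x_at probe set and no overlap between the 1-cell arrays and the other 16, leaving out those named by margin. Genes with overlap, such as Obox6 and Xpot below, can have larger ones. Pramel32, of a family expressed in oocytes and early embryos, read 12729.9, 15151.4, 14270.0 and 11798.5 on the 1-cell arrays, and from 37.9 to 10852.2 with a median of 467.6 on the others. The 4 lay above all others, with a log2 difference of 4.36 ± 0.28 (SE, limma, adjusted p = 8.41e-12). The motor protein gene Myo5b (4.11 ± 0.20), Trim75 of the TRIM family (4.05 ± 0.18), the centriolar satellite gene Ccdc14 (3.92 ± 0.25), the zinc finger gene Zfp957 (3.89 ± 0.19) and Obox5 followed (adjusted p of 7.18e-12 or lower for the first 4). All of these had the oocyte as their nearest stage, at differences of 0.78 to 1.02. Of them Trim75 passed the test against every stage (adjusted p = 0.0386).

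Among the genes lower than the mean, Lias, the enzyme that makes lipoic acid on mitochondrial proteins, read 15.3, 26.0, 117.7 and 135.7 at the 1-cell stage, and from 170.6 to 4505.2 with a median of 1928.2 elsewhere. Its 1-cell values spread widely but stayed below the others, and the log2 difference was -4.11 ± 0.26 (SE, limma, adjusted p = 4.67e-12). The phosphatase Cdc14b (-3.68 ± 0.17), the RNase P subunit Rpp40 (-3.66 ± 0.21), the calcium-binding protein gene Efhd2 (-3.63 ± 0.22), the membrane protein gene Tmem120a (-3.63 ± 0.19) and Mars1, the methionyl-tRNA synthetase (-3.47 ± 0.21), came next (adjusted p of 3.26e-12 or lower). Efhd2 read 26.6 to 34.7 at the 1-cell stage and 69.9 ± 21.7 in oocytes, and did not pass against every stage (adjusted p = 0.313), while the other 5 did. Its large difference came with a blastocyst mean of 11082.5 ± 4427.7.

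The genes were then read by role, with 1 probe set per gene, the one brightest over all arrays. Over all 7490 named genes 18.7% were higher and 20.6% lower than the mean of the other stages, with a median log2 difference of -0.05, and each list is given beside these figures. As deposited these were 1401 higher and 1546 lower genes. After median centring they were 1707 and 1164, with a median of 0.11. List figures after centring are to be read against that general shift. Of 48 oocyte and maternal-effect genes 40 (83.3%) were higher and 5 lower, with a median of 2.94. Many of them are known, and listed, for being oocyte transcripts. Zar1, Oosp3 and Fbxw19 are described above, and Pabpn1l, the oocyte poly(A)-binding protein, averaged 1624.2 ± 379.8 at the 1-cell stage against 4517.8 ± 800.5 in oocytes and 10.4 to 23.2 later. The exception at the low end was Obox6, which read 20.2 to 51.1 at the 1-cell stage, 35.1 ± 8.29 in oocytes and 17575.8 ± 2807.1 at the 8-cell stage (log2 difference -4.38 ± 0.14, SE, limma, adjusted p = 6.85e-17). Khdc3 (-2.32), Trim28 (-0.80), Pms2 (-0.73) and Pramel18 (-1.46) were the other 4 lower members.

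Of 10 cleavage-stage activation genes, known for the embryo's own transcription, 7 were lower and 1 higher, with a median of -1.09. Ubtfl1, whose product is an HMG-box factor needed by the embryo, read 2.6 to 68.2 on the 1-cell arrays, 27.1 ± 11.8 in oocytes and 4556.7 ± 588.0 at the 2-cell stage. Eif1ad averaged 206.2 ± 57.9 at the 1-cell stage and 247.0 ± 7.7 in oocytes, against 1718.9 ± 344.4 in blastocysts. Neither differed between the 1-cell stage and the oocyte by more than 0.28 on the log2 scale. The higher member was Klf17, a Krüppel-like factor, with a log2 difference of 1.64.

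Of 40 genes of deadenylation and decay 12 (30%) were higher and 12 lower, with a median of 0.09. Tent4a, a terminal nucleotidyltransferase, read 6896.7, 6540.6, 6096.0 and 5681.5 on the 1-cell arrays, and from 144.1 to 4022.4 with a median of 1690.6 on the others, and was higher than every stage by 0.86 or more (limma, adjusted p = 0.0119). Cnot10, of the CCR4-NOT deadenylase complex, was lower than every stage on 2 probe sets, at 763.3 ± 56.8 and 225.8 ± 86.0 at the 1-cell stage. Of 40 translation factors 4 were higher and 14 (35%) lower, with a median of -0.23. Gigyf2, which represses translation with 4EHP, read 4.0 to 11.7 at the 1-cell stage, near the oocyte mean of 4.72 ± 0.411, and 2133.2 ± 78.1 at the 8-cell stage. Larp4, a poly(A)-binding protein that stabilizes mRNA, averaged 471.8 ± 95.3 at the 1-cell stage, 491.6 ± 70.7 in oocytes and 16165.2 ± 1847.6 at the 8-cell stage.

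Of 68 genes of meiosis, spindle and mitotic exit 15 (22.1%) were higher and 15 lower, close to the shares of all named genes, with a median of -0.04 that turned to 0.12 after median centring. Wee2, the oocyte kinase that lets the egg leave meiosis, averaged 11510.7 ± 2174.8 at the 1-cell stage and 13296.3 ± 3355.0 at the 2-cell stage, against 82.4 ± 19.5 in blastocysts. Ccne1, cyclin E1, averaged 319.8 ± 75.9 at the 1-cell stage and 268.3 ± 60.3 in oocytes, against 4793.4 ± 413.2 at the 8-cell stage. Both signals came from x_at probe sets, so transcripts of other genes may add to them. Other genes in the text with an x_at probe set included Map1lc3a, Rfc2 and the marker Amhr2. The s_at probe sets, which may also detect more than 1 transcript, included those of Bub1b, Rgs2, Gyg, Lsm14a, Lias, Rpp40, Snrpb and Bmp15. How far this affected their values was not tested. Cenpu was higher than every stage and Cenpl lower than every stage, although both belong to the constitutive centromere network of kinetochores (2370.2 ± 200.9 and 71.8 ± 11.8 at the 1-cell stage). Of 30 genes of DNA replication 5 were higher and 13 (43.3%) lower, with a median of -0.49. Besides Dscc1, the clamp loader subunit Rfc2 was lower than every stage, at 54.3 ± 22.1 at the 1-cell stage and 110.8 ± 19.5 at the 2-cell stage, its next lowest (nearest difference -0.85, limma, adjusted p = 0.0285).

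Among 92 genes of histone chaperones, histone modifiers and DNA methylation 21 (22.8%) were higher and 30 (32.6%) lower, with a median of -0.21. Pcgf5, a subunit of a variant Polycomb complex, read 188.2 to 398.7 on the 1-cell arrays against 433.4 to 6202.7 on the others, without overlap (log2 difference -2.94 ± 0.18, SE, limma, adjusted p = 2.46e-12). Kdm1b, the histone demethylase needed for imprints in oocytes, averaged 2931.8 ± 596.3 at the 1-cell stage and 2524.2 ± 603.8 in oocytes, against 129.3 ± 31.6 in blastocysts. Ubn1, of the HIRA complex that deposits histone H3.3, was higher than every stage, at 3081.5 ± 569.1 at the 1-cell stage and 1560.2 ± 334.8 in oocytes (adjusted p = 0.00411). Brd9 of a BAF complex was lower than every stage.

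Of 35 genes of egg activation, calcium and the zona 12 (34.3%) were higher and 7 (20%) lower, the lower share being near the 20.6% of all named genes. The median was -0.03 and turned to 0.14 after median centring. After median centring, and after quantile normalization, 4 were lower. Besides Rgs2, Astl, the ovastacin protease that cleaves ZP2 after fertilization, read 2508.7 to 2643.8 at the 1-cell stage and 4399.2 ± 393.3 in oocytes, against 183.8 ± 33.4 in blastocysts. The other higher members included Mcu (1.76) and its gatekeeper Micu2 (0.87), the Golgi calcium pump Atp2c1 (2.22), the receptor Itpr2 (1.06) and the calcium sensor Stim2 (0.67). Lower were Atp2a2, the calcium pump of the endoplasmic reticulum (-1.06), the channel Trpm7 (-1.21) and the kinases Camk2a (-1.01) and Camk4 (-0.73).

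Of 119 genes of ubiquitin conjugation and removal 39 (32.8%) were higher and 27 (22.7%) lower, the lower share being near that of all named genes, with a median of 0.03. After median centring 43 were higher and 16 lower. Fbxw18 averaged 12020.0 ± 1037.1 at the 1-cell stage and 17644.3 ± 1713.1 in oocytes, against 84.3 ± 34.8 in blastocysts. Of the 39 higher genes Dcaf5, a substrate receptor of a cullin ligase, was higher than every stage. Of 12 genes in the proteasome list 6 were lower and 1, Ecpas, higher. The list took in Psmc3ip by its symbol, which is no subunit. Without it 5 of 11 were lower, with a median of -0.55, and among them were Psmb5 (-3.46), Psma3 (-1.65), Psmd13 (-1.57), Psma1 (-1.38) and Psmc5 (-1.02). Of 47 genes of autophagy and the lysosome 7 were higher and 20 (42.6%) lower, with a median of -0.37, and after median centring 9 were higher and 11 lower. Map1lc3a, which coats autophagosomes, read 819.0 to 1564.3 at the 1-cell stage against 2810.0 to 20932.4 elsewhere, and was lower than every stage (nearest difference -1.37, limma, adjusted p = 0.000107). Rragc, a GTPase that signals amino acids to mTORC1, read 9552.8 to 16762.2 against 776.7 to 9046.5, and was higher than every stage (nearest difference 0.83, adjusted p = 0.0308).

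Of 49 genes of ribosome biogenesis 25 (51%) were lower and 7 higher, with a median of -0.60, and Wdr3, Krr1, Utp14a and Tbl3, all of the small-subunit processome, were lower than every stage. Wdr3 read 236.0, 220.0, 161.9 and 242.1 at the 1-cell stage, and from 485.8 to 8157.8 with a median of 3071.6 elsewhere (log2 difference -3.44 ± 0.15, SE, limma, adjusted p = 1.52e-14). The array carries 4 of 91 cytosolic ribosomal protein genes listed, and all 3 tested, Rpl22, Rps3 and the paralog Rpl7l1, were lower. Rps3 read 6.7 to 16.6 at the 1-cell stage and 16.9 ± 18.7 in oocytes, and 1822.5 ± 110.9 at the 8-cell stage, and its other probe set did not pass. Of 23 mitochondrial ribosomal protein genes 6 (26.1%) were lower, near the 20.6% of all named genes, none was higher and 17 did not pass, with a median of -0.12 that turned to 0.05 after median centring, when 3 were higher. Of the 6 lower ones Mrpl43, Mrps6, Mrpl27 and Mrps10 were lower than every stage, Mrps6 at 425.5 ± 40.2 at the 1-cell stage and 1329.8 ± 276.9 in oocytes. The 18S signal was higher on the same 4 arrays (log2 difference 4.35 for the middle probe set), and its part in these counts was not tested.

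Respiration, splicing and transport were the last lists. Of 25 genes of oxidative phosphorylation 9 (36%) were lower and 1 higher, with a median of -0.52. Ndufc2, of complex I, averaged 595.7 ± 182.3 at the 1-cell stage, 3492.2 ± 214.4 in oocytes and 257.6 ± 73.6 at the 2-cell stage, and so was not lowest in the zygote. Cox11, a copper chaperone of cytochrome oxidase, averaged 249.2 ± 91.2 at the 1-cell stage and 242.9 ± 45.2 in oocytes. Of 70 splicing genes 28 (40%) were lower and 8 higher, with a median of -0.23. Snrpb, a core protein of the spliceosomal snRNPs, averaged 179.4 ± 15.4 at the 1-cell stage and 351.6 ± 158.1 in oocytes, against 6968.9 ± 396.3 at the 8-cell stage. Rbm34 read 2.3 to 32.5 at the 1-cell stage, within the range of the dimmest probe sets. Of 33 genes of the nuclear pore and transport 7 (21.2%) were higher and 8 (24.2%) lower, near the shares of all named genes. The median was -0.05 and turned to 0.11 after median centring. Xpot, the exporter of tRNA, read 14.3, 57.8, 65.3 and 17.6 at the 1-cell stage, and from 43.0 to 9441.8 with a median of 2835.9 elsewhere. Its 1-cell arrays overlapped with the oocytes, at 108.4 ± 62.4, and the call against every stage was close to the threshold (nearest difference -1.12, limma, adjusted p = 0.0468). The inner nuclear membrane gene Lemd3 averaged 33.5 ± 17.6 at the 1-cell stage and 44.4 ± 17.2 in oocytes, against 2593.3 ± 465.9 at the 8-cell stage.

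**Figure D5:**
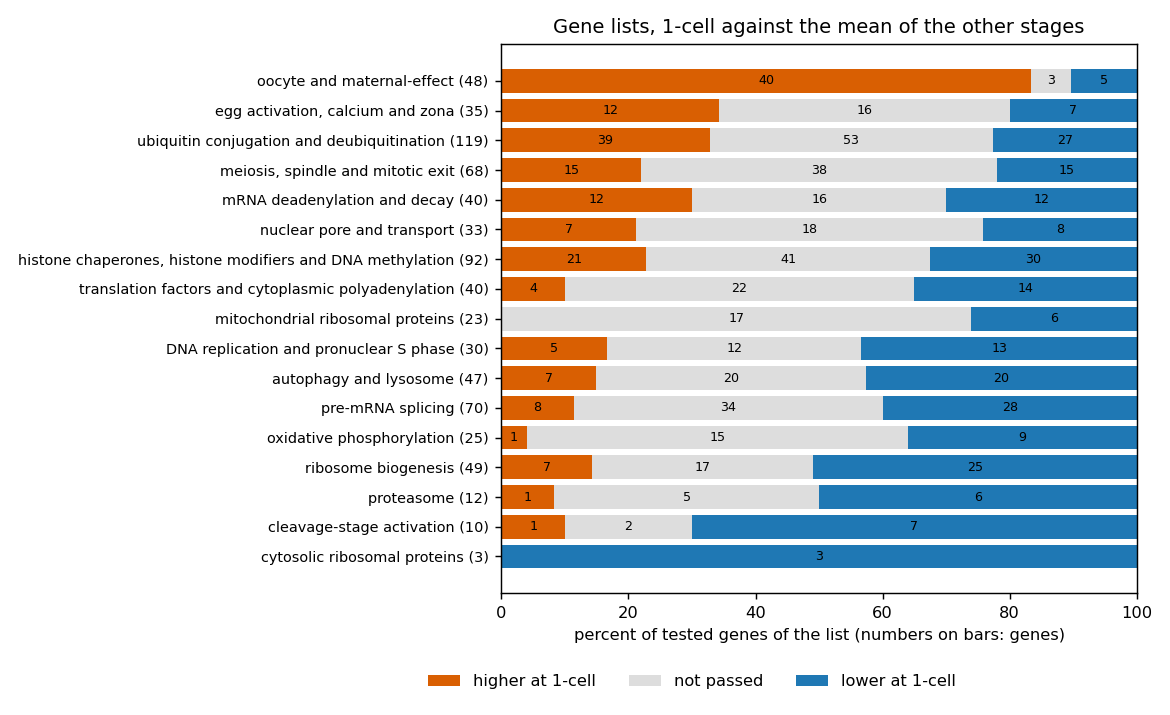
Percent of the tested genes of each list that were higher (orange), lower (blue) or did not pass (grey) at the 1-cell stage against the mean of the other stages. Lists are ordered by the percent higher minus the percent lower, with numbers of genes on the bars. The oocyte and maternal-effect list has 83.3% higher genes against 18.7% of all named genes, and ribosome biogenesis has 51% lower genes against 20.6%.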

How the data were processed

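Intensity values, 1 per probe set on a linear scale, were used as deposited by the authors. The sources used here do not give the summarization of probes or the scaling of arrays. In the deposited table each array has the same trimmed mean (2% of values removed at each end), while the quantiles differ. The authors' RNA was total RNA taken through 2 rounds of in vitro transcription, per the labels. Symbols came from the platform annotation, updated through Entrez numbers to RefSeq names on GRCm38.p6, which matched 14486 of the 14661 probe sets with 1 symbol.

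Intensities were transformed to log2(intensity + 20), the added 20 being the table's 20th percentile, and probe sets at or above the median on 4 or more arrays were kept. Stage means over all 20 arrays were fitted in limma 3.58.1 (R 4.3.3) and moderated by eBayes with a trend on intensity (15 residual degrees of freedom). The contrast was the 1-cell mean minus the average of the 4 other stage means, and the test against every stage used the largest of 4 one-sided p-values. Both were adjusted by the Benjamini-Hochberg method over 15234 probe sets and called under 0.05. The script was tested on simulated data. The 18S controls were compared by exact permutation in python 3.11.15.

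Named genes have 1 symbol, no clone name and no x_at probe set. They are the 15 brightest on the 1-cell arrays, the 12 with the largest margin in each direction among those beyond every stage without overlap, the 6 largest differences each way from the mean without overlap, and, with any type of probe set, the 2 called members of each of 17 lists with the smallest p. The members and lists were chosen with earlier results of these data known. Other genes are named from the lists, and were picked after their values were seen. Alternatives were other pseudocounts, filters, scalings, weights and thresholds, a 2-group fit, a replicate block and leaving out each array.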

Additional observations from a re-analysis of the deposited data

Results flagged for a closer look

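Single arrays that stood apart from the other 3 of their stage were looked for in the named genes, by whether the gap to the nearest array exceeded the 95% critical share of the stage's whole range (Dixon). In 28 of 370 gene and stage pairs (7.57%) 1 array did so, where chance flags about 1 in 20. On the 1-cell arrays this occurred once, for glycogenin Gyg, whose replicate 1 read 19720.7 against at most 17548.9 in the other 3. Gyg in oocytes had replicate 1 apart on the low side, at 14525.7 against 18486.0 or more.

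Of the other stages, 2-cell replicate 1 was the array most often apart. It was high for Fbxw24 (11345.0 against 7557.7 for the nearest array), Fbxw22 (4595.8 against 3171.7), Ooep (3928.0 against 2162.1), Fbxw18 (2867.1 against 1816.0), Myo5b (567.1 against 503.1) and Ipcef1 (141.5 against 23.1), and low for Cdc14b (799.0 against 1110.9). The 2-cell replicate 3 was high for Pum3 (5458.6 against 3396.5), Map1lc3a (6546.6 against 5288.7) and Wdr3 (3180.1 against 2233.6).

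Among oocytes, replicate 4 was high for Fbxw24 (26341.4 against 20280.3) and Efhd2 (102.3 against 62.3), and replicate 3 for Lsm14a (13078.1 against 10729.9) and Ipcef1 (117.5 against 12.5). At the 8-cell stage, replicate 1 was high for Trim61 (108.0 against 31.3) and Obox6 (21768.3 against 16533.8), replicate 4 for Rpp40 (1451.9 against 1218.2) and Gigyf2 (2249.3 against 2109.5), and replicate 3 was low for Nlrp4f (92.4 against 152.7) and high for Cox11 (1067.6 against 981.4). Among blastocysts, replicate 1 was high for Elobl (1226.8 against 843.5), Rpp40 (1896.4 against 1458.8) and Astl (233.7 against 169.1), and replicate 2 for Myo5b (107.0 against 26.6). Blastocyst replicate 4 was low for Rragc (1427.2 against 1983.0) and replicate 3 for Cox11 (1516.2 against 2157.1).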

How the results depend on the processing

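The count of probe sets higher at the 1-cell stage than at every other stage was the least stable result. Against 70 it was 19 at an adjusted p under 0.01, 45 with a pseudocount of 5, 144 with one of 80, 21 after quantile normalization, 28 without the intensity trend and 143 with array weights, and without each array in turn it ran from 19 to 73. Of the 12 genes named for it, the calls of Acoxl, Trim61, Cdca2 and Nr2e1 were lost after quantile normalization, those of Ipcef1, Acoxl and Trim61 with a pseudocount of 5, and that of Trim61 without the intensity trend. The lower count was 86 at an adjusted p under 0.01 against 139, and without each array it ran from 103 to 140. Against the mean of the other stages the 2-group fit gave 606 higher and 727 lower, against 2129 and 2942, and leaving out each array gave 1819 to 2157 and 2493 to 2988. The 18S differences ran from 2.89 to 2.96 (3′ part), 3.17 to 3.32 (5′ part) and 4.27 to 4.41 (middle) without each array. The cause of these changes was not tested. Counting every tested probe set of a list raised the number tested, and some counts with it. Of 12 probe sets for cleavage-stage activation 2 were higher, and of 65 for translation factors 7 were higher and 26 lower. Of 109 for meiosis and spindle 24 were lower, and of 43 for DNA replication 10 were higher. Of 155 for histone and DNA modifiers 32 were higher and 46 lower, and of 56 for egg activation 19 were higher. Of 197 for ubiquitin 60 were higher and 48 lower. For oxidative phosphorylation 2 of 31 were higher, and for the proteasome 3 of 16. Over all 15234 tested probe sets 14.0% were higher and 19.3% lower. After median centring 4 were lower for egg activation, 11 for autophagy and 16 for ubiquitin, and 2 were higher for oxidative phosphorylation and 3 for mitochondrial ribosomal proteins. Over all 7490 named genes centring moved the counts the same way, from 1401 higher and 1546 lower to 1707 and 1164. After quantile normalization 4 were lower for egg activation and 3 higher for DNA replication. The list scalings, and leaving Psmc3ip out of the proteasome list, were chosen after seeing the data.

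With the replicate number of the titles as a block, 2121 were higher and 2904 lower than the mean, and 59 and 137 beyond every stage. The numbers did not pair the arrays, since none of 40 correlations between same-numbered arrays' deviations exceeded 0.1 (range -0.062 to 0.063). Among 2786 pairs of a named probe set and an alternative, 2747 kept direction and side of the threshold, 37 lost their call (33 of them in the 2-group fit), 2 gained one and none reversed. From the lists, the 2-group losses included the lower genes Obox6, Ubtfl1, Gigyf2, Larp4, Ccne1, Cox11, Ndufc2 and Rps3. They also included the higher genes Pabpn1l, Tent4a, Wee2, Kdm1b, Astl and Fbxw18 (limma, adjusted p from 0.056 to 0.236 over these genes).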

Other observations

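Further genes among those beyond every stage, chosen after their values were seen, are given here as values. They were picked by what their products do, and no list was tested for enrichment. Among genes of DNA repair, Helq, a repair helicase, averaged 3639.0 ± 678.6 at the 1-cell stage, against 2089.5 ± 541.5 at the 2-cell stage, its next highest. Smug1, which removes uracil from DNA, averaged 2674.0 ± 256.4 at the 1-cell stage against 1613.8 ± 227.9 in oocytes, Palb2, the partner of BRCA2, 2249.2 ± 431.8 against 1154.4 ± 228.0, and Rnf168, a ubiquitin ligase at DNA breaks, 1097.8 ± 242.5 against 508.3 ± 67.4 (SD, n = 4 each, adjusted p from 0.00105 to 0.0368 in limma's test against every stage). Other repair genes were lower than every stage. Ercc1 averaged 110.8 ± 48.3 at the 1-cell stage against 449.4 ± 114.4 at the 8-cell stage, its next lowest, and Tonsl 127.2 against 259.3 at the 2-cell stage (limma, adjusted p = 0.00015 and 0.0331). Naa16 and Naa35, auxiliary subunits of amino-terminal acetyltransferases, averaged 3244.9 ± 611.9 and 2256.0 ± 273.0 at the 1-cell stage, against 1712.2 ± 169.6 and 1325.8 ± 205.2 in oocytes. Insm1, a zinc finger factor of endocrine cells, averaged 2580.8 ± 1089.7 at the 1-cell stage against 903.7 ± 320.4 in oocytes, with overlap between arrays.

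The genes lower than every stage included some that modify or process RNA. Mettl14, of the m6A methyltransferase, averaged 22.1 ± 13.9 at the 1-cell stage against 87.4 ± 33.2 at the 2-cell stage, its next lowest, and the tRNA methyltransferase gene Trmt10a 106.3 ± 28.6 against 223.7 ± 70.6 in oocytes. Mettl1, Ctu2, Dus3l and Prorp, which also act on tRNA, averaged 115.5 ± 51.2, 163.5 ± 42.1, 247.2 ± 105.9 and 274.8 ± 75.6 at the 1-cell stage, against 271.0, 443.4, 529.0 and 551.3 at their next lowest stages. Drosha, the nuclear enzyme that cuts microRNA precursors, averaged 481.2 ± 178.6 at the 1-cell stage against 910.7 ± 294.2 in oocytes, and Tet1, which oxidizes 5-methylcytosine, 49.5 ± 47.6 against 117.9 ± 6.13 (adjusted p from 0.0132 to 0.0432 for these 8 genes). The 1-cell arrays overlapped with others for Ctu2, Dus3l, Prorp, Drosha and Tet1, and did not for Mettl14, Trmt10a and Mettl1.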
